A study of Drosophila melanogaster with 4 samples.

Results

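The core of the Notch pathway was followed through 8 genes, chosen as the receptor, its ligands, its modifiers and its nuclear effectors and found on the array by the CG numbers of their non-control probes. They were the receptor *N* (CG3936), the ligands *Dl* (CG3619) and *Ser* (CG6127), the ligand ubiquitin ligases *neur* (CG11988) and *mib1* (CG5841), the receptor glycosyltransferase *fng* (CG10580), the DNA-binding effector *Su(H)* (CG3497) and its co-repressor adaptor *H* (CG5460). These are 8 of 25092 genes and unnamed transcripts with a probe on the array, and all 8 were among the 14854 that could be tested. They carried 18 distinct probes, of which 17 were measured above background and 1, a further *N* probe, was not.

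The embryos with ectopic mir-3, a microRNA, were homozygous for its ectopic expression in a w1118 background, and the wild-type embryos were w1118. Embryos of both genotypes came from 2 h collections kept at 25 °C until 6 to 8 h old, and their total RNA was measured. Each of 3 biological replicates put both genotypes on 1 two-colour Agilent array, with mir-3 ectopic RNA in Cy3 and w1118 RNA in Cy5, and a 4th array repeated replicate 1 with the dyes exchanged. The sources used here do not say what drove the ectopic expression or in which cells, and the level of mir-3, for which no probe was named, was not analysed here.

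Notch is a membrane receptor that is cleaved when a ligand on a neighbouring cell pulls on it, and its freed intracellular domain enters the nucleus and joins Su(H) to switch on target genes such as those of the *E(spl)* complex. Without that domain Su(H) is held in a repressing complex by Hairless, the product of *H*. In the Drosophila embryo the pathway is known for lateral inhibition, in which Notch signalling limits how many cells of a proneural or muscle-forming group become neuroblasts or muscle progenitors.

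*Su(H)* was the member with a clear difference: its transcript was higher in mir-3 ectopic embryos on all 4 arrays and with both of its probes, by 0.73 ± 0.10 on the log2 scale (SD, n = 3), or 1.66-fold. The 2 probes of *H* went opposite ways by their means, one higher by 0.44 and the other lower by 0.41 on the log2 scale, and the average over both was 0.02. On the array with the dyes exchanged both *H* probes were above 0, at 0.34 and 0.11. The averages of *neur* and *fng* were lower by small amounts that depended on the arrays used, and those of *N*, *Dl*, *Ser* and *mib1* did not pass the test. By limma with Benjamini-Hochberg adjustment over all 14854 genes and a threshold of 0.05, 1 of the 8 members was higher in mir-3 ectopic embryos and 2 were lower. Over the array 48.8% of genes were called, 24.3% higher and 24.5% lower, so the members' share of calls was not above the background. In a fit of all 4 arrays with the dye as a term, the dye-term fit, 1 member was higher and 1 lower, beside 54.3% of genes called, 26.9% higher and 27.5% lower. The median ratio of the 8 members was -0.05, beside -0.0018 over all genes tested.

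Every ratio here is log2 of mir-3 ectopic over w1118 by the labelled dyes. The authors' deposited value table has the opposite sign by those labels, and if the labelled dyes were exchanged each direction below would be turned round. Each array had 45020 spots, 57.6% to 64.7% of the non-control spots were well above background for mir-3 ectopic RNA and 59.1% to 66.1% for w1118 RNA, and none was saturated. Precision is limited by the number of arrays. Taken over genes, not independent replicates, the ratios on the 3 arrays of 1 dye orientation correlated at r of 0.941 to 0.945, and those on the dye-swap array with them at 0.752 to 0.80. The dye-swap array stood apart for several members, so the ratio on each array is given below, with the value of the dye-term fit. That fit gives the dye-swap array as much weight as the other 3 arrays together. Replicate 1 with its dye swap was on 1 slide and replicates 2 and 3 on another, so slide and replicate cannot be told apart. Of 16 marker genes of a segmented mid-stage embryo, 15 were above background on all arrays in both genotypes (*lbe* was not), against 4 of 8 adult tissue markers in mir-3 ectopic embryos and 3 of 8 in w1118 embryos. Such detection was not particular to mid-stage markers. It held for 15 of 16 late embryonic cuticle markers in w1118 embryos and 11 in mir-3 ectopic embryos, and for 12 of 12 maternal markers in both. Of the 15 mid-stage markers tested, 6 were lower and 0 higher, with a median of -0.12, beside 24.5% of all genes lower. Of 16 late embryonic cuticle markers 15 were tested and 12 were lower, their median ratio being -2.18, *TwdlD* (-3.71) and *TwdlW* (-3.31) having the smallest adjusted p. The part of these markers in the members' ratios was not tested. In whole embryos, fewer cells of a type and less RNA per cell cannot be told apart.

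**Figure D1:**
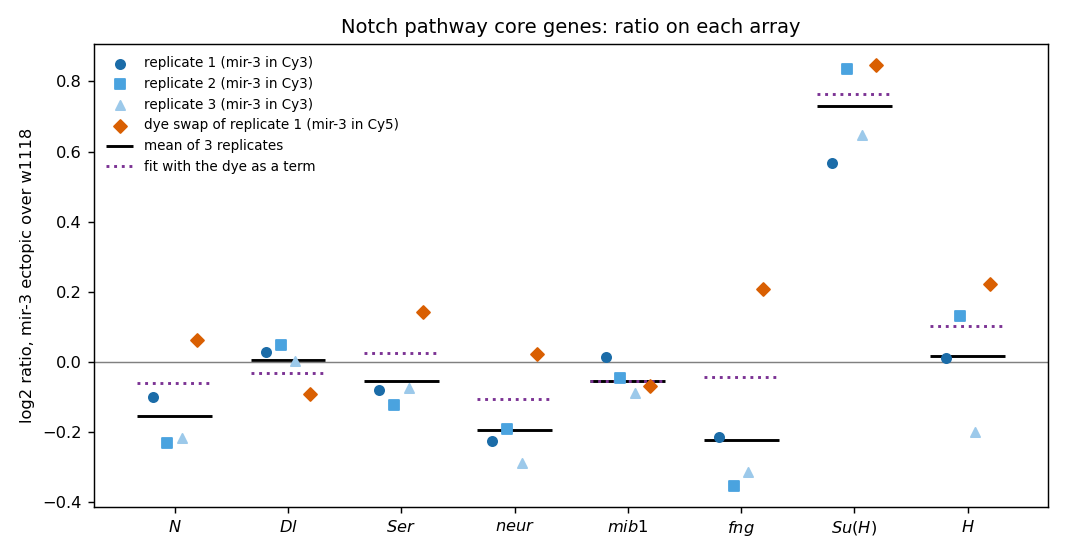
Log2 ratio of mir-3 ectopic over w1118 embryos for the 8 members on each of the 4 arrays (points), with the mean of the 3 replicates (black line) and the estimate of the dye-term fit (dotted line). *Su(H)* is above 0.56 on every array, and for *fng* the dye-swap array, at 0.21, lies on the other side of 0 from the other 3 arrays, at -0.35 to -0.21.

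Among the nuclear effectors, *Su(H)* encodes the sequence-specific DNA-binding protein through which Notch acts. Its gene ratio was 0.57, 0.84 and 0.65 on the first arrays of replicates 1, 2 and 3 and 0.85 on the dye swap. The limma adjusted p was 4.9e-05 (SE 0.05), and the absolute ratio ranked 505 of 14854. On slide 1 the ratio was 0.71 and on slide 2 it was 0.74, and in the dye-term fit it was 0.77 (limma adjusted p 2.7e-05). With arrays centred on their median in place of loess it was 0.69 and did not pass (limma adjusted p 0.48). No member passed under that centring, and over the array 24 genes were higher and 58 lower.

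Both *Su(H)* probes are named for the transcript CG3497-RA. Probe A_09_P090850 had log2 normalized intensities of 9.70, 9.69 and 9.69 in mir-3 ectopic embryos of replicates 1, 2 and 3, against 8.76, 8.76 and 8.76 in w1118 embryos. Probe A_09_P011091 had 11.35, 11.18 and 11.23 in mir-3 ectopic embryos, against 10.87, 10.43 and 10.86 in w1118 embryos. For both probes every mir-3 ectopic value was above every w1118 value. The ratio was 0.93 ± 0.006 for A_09_P090850 and 0.53 ± 0.19 for A_09_P011091 (SD, n = 3), with limma adjusted p of 6.5e-06 and 0.00098 over all 19734 measured probes. The very small SD of A_09_P090850 is over replicate means, and its 2 arrays of replicate 1 read 0.79 and 1.08. The spots of the probe printed in duplicate, A_09_P011091, differed from each other by 0.08, 0.11 and 0.23 on the arrays of replicates 1, 2 and 3 and by 0.14 on the dye swap.

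The size of the *Su(H)* difference was not the same for both probes, although its direction was. The ratio of A_09_P011091 was below that of A_09_P090850 on 4 of 4 arrays, by 0.40 ± 0.20 (SD, n = 3). In a fit over every pair of measured probes of the same gene, 7628 pairs in all, that difference passed (limma adjusted p 0.012), but not without replicate 1 (-0.37, limma adjusted p 0.061) or with replicate 1 taken from its dye swap alone (-0.40, limma adjusted p 0.086). Such differences were common on this array, 29.8% of all pairs being called, and 14.4% of pairs differed by more than this one.

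*H* encodes the adaptor that ties Su(H) to the co-repressors Groucho and CtBP, and it was the member on which probes disagreed most. Probe A_09_P042661, named for CG5460-RD, had log2 intensities of 10.94, 10.97 and 11.11 in mir-3 ectopic embryos of replicates 1, 2 and 3, against 10.56, 10.27 and 10.86 in w1118 embryos. Its mir-3 ectopic values all lay above its w1118 values. Probe A_09_P042666, named for CG5460-RC, had 10.45, 10.43 and 10.63 in mir-3 ectopic embryos, against 10.60, 10.87 and 11.28 in w1118 embryos. Here mir-3 ectopic was the lower channel in each replicate, though mir-3 ectopic replicate 3 was above w1118 replicate 1.

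The RD probe gave ratios of 0.42, 0.70 and 0.25 on the first arrays of replicates 1, 2 and 3 and 0.34 on the dye swap, a mean of 0.44 ± 0.23 (SD, n = 3) that passed (limma adjusted p 0.0037). The RC probe gave -0.40, -0.43, -0.65 and 0.11 in the same order, a mean of -0.41 ± 0.25 (SD, n = 3) that also passed (limma adjusted p 0.0072). The RD probe was thus higher on all 4 arrays, while the RC probe was lower on the 3 arrays with mir-3 ectopic RNA in Cy3 and not on the dye swap. In the dye-term fit they were at 0.40 (limma adjusted p 0.0043) and -0.19 (limma adjusted p 0.022), so both passed, the RC value lying nearer to 0. The 2 printed spots of the RC probe differed by 0.01, 0.12 and 0.01 on the arrays of replicates 1, 2 and 3 and by 0.05 on the dye swap, less than the 2 probes did on each array. The RD probe has 1 spot, so the spread between its spots is not known.

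The RD ratio was above the RC ratio on 4 of 4 arrays, by 0.82, 1.13 and 0.90 on the first arrays of replicates 1, 2 and 3 and 0.23 on the dye swap. The mean difference of 0.85 ± 0.30 (SD, n = 3) passed over all pairs (limma adjusted p 0.0011), and it was 0.59 in the dye-term fit (limma adjusted p 0.00071). With replicate 1 taken from its dye swap alone it was 0.76 and missed the threshold (limma adjusted p 0.062), as did the RC probe (-0.33, limma adjusted p 0.15). Only 1.80% of the 7628 pairs differed by more. Of 3150 named genes with at least 2 measured probes, 171, or 5.43%, had probes called in opposite directions, and *H* was the only member among them. The gene average of 0.02 ± 0.19 (SD, n = 3) did not pass (limma adjusted p 0.87, 95% interval -0.15 to 0.18). The sequences of the probes were not used here, so which part of each transcript they read is not given.

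**Figure D2:**
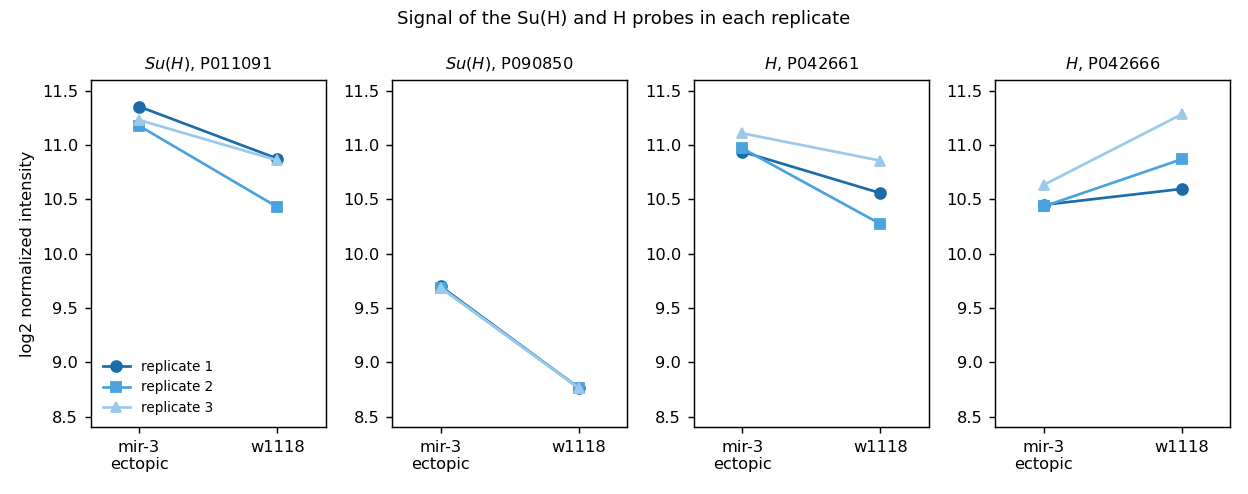
Log2 normalized intensity of the *Su(H)* and *H* probes in mir-3 ectopic (left) and w1118 (right) embryos, 1 line per replicate, with both arrays of replicate 1 averaged. Lines fall towards w1118 for both *Su(H)* probes and for *H* probe A_09_P042661, and climb towards w1118 for *H* probe A_09_P042666; heights of different probes are not comparable.

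The receptor gene *N* is read by 3 probes, all named for CG3936-RA. Its ratio was -0.10, -0.23 and -0.22 on the first arrays of replicates 1, 2 and 3 and 0.06 on the dye swap. The mean of -0.16 ± 0.12 (SD, n = 3) narrowly missed the threshold (limma adjusted p 0.051), and in the dye-term fit it was -0.06 (limma adjusted p 0.25).

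That average again joined probes that differed. Probe A_09_P050251 had log2 intensities of 13.93, 13.79 and 13.84 in mir-3 ectopic embryos, against 14.05, 14.26 and 14.33 in w1118 embryos, with no overlap. Its ratio was -0.37 ± 0.21 (SD, n = 3, limma adjusted p 0.0066), from -0.36, -0.48 and -0.50 on the first arrays of replicates 1, 2 and 3 but 0.10 on the dye swap, and -0.17 in the dye-term fit (limma adjusted p 0.014). Probe A_09_P010921 had 12.03, 12.12 and 12.19 in mir-3 ectopic embryos and 11.94, 12.10 and 12.13 in w1118 embryos, which overlapped, and its ratio of 0.06 ± 0.04 (SD, n = 3) did not pass (limma adjusted p 0.35). The difference between these 2 probes was 0.42 ± 0.18 (SD, n = 3, limma adjusted p 0.0082), and on the dye-swap array alone it had the opposite sign, at -0.08. With that array alone for replicate 1 neither the difference (0.32, limma adjusted p 0.25) nor A_09_P050251 (-0.29, limma adjusted p 0.16) passed, and the difference also missed the threshold with processed signals (0.26, limma adjusted p 0.061) and with slide as a random block (0.37, limma adjusted p 0.061). The remaining *N* probe, A_09_P198755, was not well above background in either genotype on any of the 4 arrays, and no ratio is drawn from it.

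The ligand gene *Dl* had 6 probes, 3 named for CG3619-RA and 3 for CG3619-RB, and its average of 0.0070 ± 0.04 (SD, n = 3) did not pass (limma adjusted p 0.90, 95% interval -0.09 to 0.11). Its ratio was 0.03, 0.05 and 0.0034 on the first arrays of replicates 1, 2 and 3 and -0.09 on the dye swap. A single *Dl* probe passed, A_09_P042006 of CG3619-RB, with log2 intensities of 12.73, 12.60 and 12.51 in mir-3 ectopic embryos, against 12.96, 12.83 and 12.76 in w1118 embryos. The groups did not overlap, and within each replicate mir-3 ectopic was the lower. The ratio of the probe was -0.24 ± 0.01 (SD, n = 3, limma adjusted p 0.0043). It was -0.26, -0.23 and -0.25 on the arrays of replicates 1, 2 and 3 and -0.20 on the dye swap, and -0.22 in the dye-term fit (limma adjusted p 0.0020).

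The other 5 *Dl* probes averaged between -0.10 and 0.13 and did not pass. Without replicate 1, however, A_09_P052286 (0.19, limma adjusted p 0.015), A_09_P146850 (0.15, limma adjusted p 0.030) and A_09_P150090 (0.17, limma adjusted p 0.019) were called higher, opposite to A_09_P042006. The arrays left, of replicates 2 and 3, both had mir-3 ectopic RNA in Cy3. In the dye-term fit these 3 probes were at -0.0063, 0.015 and 0.035 and did not pass (limma adjusted p 0.91, 0.78 and 0.46). For 4 of the other 5 probes, A_09_P042001, A_09_P052286, A_09_P146850 and A_09_P150090, the 3 arrays with mir-3 ectopic RNA in Cy3 were above 0 and the dye swap below it. Probe A_09_P042006 differed from each of these 4 by 0.27 to 0.36, and these were the 4 of 15 *Dl* pairs that were called. The 2 printed spots of A_09_P042001 lay on either side of 0 on the 3 arrays with mir-3 ectopic RNA in Cy3. They differed by 0.18, 0.23 and 0.31 on the arrays of replicates 1, 2 and 3, and by 0.12 on the dye swap. In the dye-term fit the pair with A_09_P042001 no longer passed (0.17, limma adjusted p 0.052), and the pair with A_09_P174375 did (-0.27, limma adjusted p 0.030). The pair with A_09_P042001 also missed the threshold without replicate 2 (limma adjusted p 0.18) or replicate 3 (limma adjusted p 0.15), that with A_09_P146850 without replicate 2 (limma adjusted p 0.093) and that with A_09_P052286 without replicate 3 (limma adjusted p 0.060), and all 4 did with replicate 1 taken from its dye swap alone (limma adjusted p 0.14 to 0.28). Probes A_09_P052286 and A_09_P150090 are named for the same transcript as A_09_P042006, so the disagreement did not follow the transcript names.

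*Ser*, the second ligand of Notch, has 1 probe. Its log2 intensities were 12.34, 12.07 and 11.96 in mir-3 ectopic embryos, against 12.31, 12.19 and 12.04 in w1118 embryos, and the groups overlapped. The ratio was -0.08, -0.12 and -0.07 on the first arrays of replicates 1, 2 and 3 and 0.14 on the dye swap, and the mean of -0.06 ± 0.08 (SD, n = 3) missed the threshold (limma adjusted p 0.37, 95% interval -0.17 to 0.06).

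Of the ubiquitin ligases that let ligand-bearing cells take up Delta and Serrate, *neur* was lower by a small amount and *mib1* did not pass. The *neur* ratio was -0.23, -0.19 and -0.29 on the first arrays of replicates 1, 2 and 3 and 0.02 on the dye swap, with a mean of -0.19 ± 0.09 (SD, n = 3, limma adjusted p 0.016). It was -0.11 in the dye-term fit (limma adjusted p 0.046), and it missed the threshold when replicate 2 was left out (-0.19, limma adjusted p 0.061), when replicate 3 was (-0.15, limma adjusted p 0.12) and when the dye-swap array alone stood for replicate 1 (-0.15, limma adjusted p 0.18).

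Of the 2 *neur* probes, 1 passed; both are named for CG11988-RA. Probe A_09_P133140 had log2 intensities of 10.89, 10.61 and 10.55 in mir-3 ectopic embryos, against 11.17, 11.00 and 10.93 in w1118 embryos, without overlap. It was lower on 4 of 4 arrays, at -0.35 ± 0.06 (SD, n = 3, limma adjusted p 0.0011), and at -0.28 in the dye-term fit (limma adjusted p 0.00067). Probe A_09_P043841 had 10.07, 9.86 and 9.87 in mir-3 ectopic embryos, within the span of 9.85 to 10.07 in w1118 embryos, and its mean ratio, -0.04 ± 0.14 (SD, n = 3), missed the threshold (limma adjusted p 0.63). Their difference of 0.31 ± 0.11 (SD, n = 3) had the same sign on 4 of 4 arrays and passed over all pairs (limma adjusted p 0.019). It missed the threshold without replicate 1 (0.29, limma adjusted p 0.052), without replicate 2 (0.26, limma adjusted p 0.15) and with replicate 1 taken from its dye swap alone (0.34, limma adjusted p 0.10). The 2 printed spots of A_09_P043841 differed by 0.07, 0.15 and 0.32 on the arrays of replicates 1, 2 and 3. On the dye swap they differed by 0.03. On the replicate 3 array these spots read -0.36 and -0.04, beside -0.38 for A_09_P133140.

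The single *mib1* probe had log2 intensities of 11.34, 11.33 and 11.31 in mir-3 ectopic embryos, against 11.37, 11.37 and 11.40 in w1118 embryos. The groups did not overlap, but they lay close together. The ratios were 0.02, -0.05 and -0.09 on the first arrays of replicates 1, 2 and 3 and -0.07 on the dye swap, and the mean of -0.05 ± 0.03 (SD, n = 3) did not pass (limma adjusted p 0.32, 95% interval -0.15 to 0.05).

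*fng*, which modifies the receptor, encodes the glycosyltransferase that elongates O-linked fucose on the EGF repeats of Notch and so favours Delta over Serrate as its ligand. Its single probe had log2 intensities of 11.42, 11.34 and 11.36 in mir-3 ectopic embryos, against 11.43, 11.69 and 11.68 in w1118 embryos; the replicate 1 values were almost equal and those of replicates 2 and 3 were apart. The ratio was -0.21, -0.35 and -0.31 on the first arrays of replicates 1, 2 and 3 and 0.21 on the dye swap. The mean of -0.22 ± 0.19 (SD, n = 3) passed (limma adjusted p 0.037), but in the dye-term fit the ratio was -0.04 and did not (limma adjusted p 0.40, 95% interval -0.14 to 0.05).

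The *fng* ratio differed between the arrays of replicate 1 more than that of most genes. Replicate 1, in which the dyes are balanced, gave -0.0038, against -0.33 for the mean of replicates 2 and 3, in which mir-3 ectopic RNA was always in Cy3. Leaving out replicate 2 (-0.16, limma adjusted p 0.16) or replicate 3 (-0.18, limma adjusted p 0.18) also ended the call. The first array of replicate 1 departed from the mean of both replicate 1 arrays by -0.21 for *fng*, and 5.76% of genes had a larger departure in size. With 1 array in each orientation, dye and array noise cannot be told apart in this value. For the other members it ran from -0.14 (*Su(H)*) to 0.06 (*Dl*), beside a median absolute size of 0.066 over all genes.

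**Figure D3:**
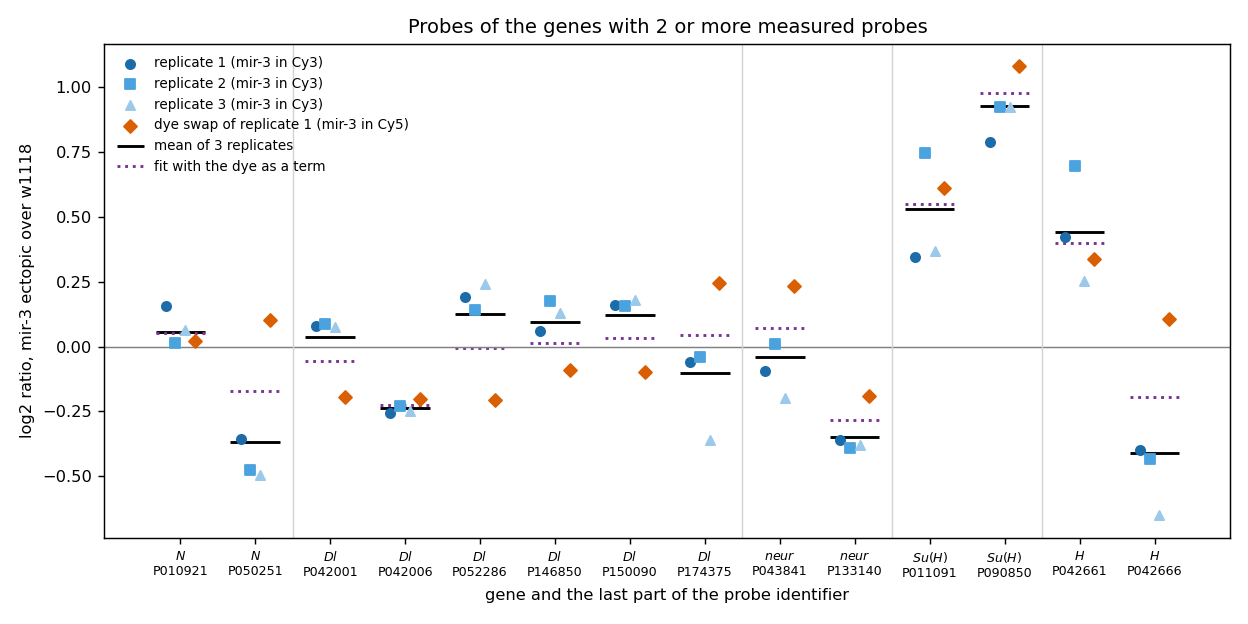
Log2 ratio of mir-3 ectopic over w1118 embryos on each array for the 14 measured probes of *N*, *Dl*, *neur*, *Su(H)* and *H*, with the mean of the 3 replicates (black line) and the estimate of the dye-term fit (dotted line). Both *Su(H)* probes lie above 0 on every array, the *H* probes lie on opposite sides of 0 by their means, and the dye-swap points of *N* probe A_09_P050251 and *H* probe A_09_P042666 lie above 0, apart from the other 3 arrays.

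Over all 17 measured member probes, 3 were called higher and 5 lower, beside 48% of the 19734 probes measured, 24.8% higher and 23.2% lower. In the dye-term fit 3 were higher and 4 lower, beside 52.6%, 27% and 25.5%, the probe of *fng* being the one that no longer passed. Only 6 of the 17 had the same sign on all 4 arrays, namely *N* A_09_P010921, *Dl* A_09_P042006, *neur* A_09_P133140, both *Su(H)* probes and *H* A_09_P042661, beside 54.1% of all probes. At the level of genes it was 1 of 8, *Su(H)*, beside 55.3%. All 5 members with at least 2 measured probes had at least 1 pair of probes whose ratios differed by the test. The share of all genes with such a pair was not counted. Of the members' 19 pairs 8 were called, beside 29.8% of all pairs. *Dl* had 15 of these pairs, and its 4 called pairs all held probe A_09_P042006. In the dye-term fit 8 of the 19 pairs were called too, 1 *Dl* pair having replaced another, beside 29.5% of all pairs.

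By distance over the ratios on the 4 arrays, the genes most like *Su(H)* were CG31705 (0.07), CG40498 (0.07) and the transcript BT025068 (0.14), with mean ratios of 0.71, 0.75 and 0.73.

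The other genes of the pathway were taken from lists of 66 tested genes. Of these, 19 were higher, 25 lower and 22 did not pass, with a median ratio of -0.03. Over the array 48.8% of genes were called, 24.3% higher and 24.5% lower, and the counts of each list below are to be read against these shares. Without replicate 2 or without replicate 3 the lower genes were 16 or 15. Over the array 2401 or 2224 genes were then lower, beside 3636 as reported. Among the genes named from these lists, *Fur2*, *O-fut1*, *aux*, *Sec15*, *insv*, *Cdk8* and *Tom* rest on 1 measured probe each. The same holds for *E(spl)mgamma-HLH*, *E(spl)m5-HLH*, *E(spl)mdelta-HLH*, *E(spl)m4-BFM* and *E(spl)m6-BFM*.

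Genes of receptor maturation and cleavage went both ways: of 16, 7 were higher and 3 lower while 6 missed the threshold, and the median was 0.07. *rumi*, the O-glucosyltransferase of Notch, was higher by 0.81 ± 0.11 and *O-fut1*, the fucosyltransferase that makes the substrate of Fringe, by 0.36 ± 0.05 (SD, n = 3). The furin proteases *Fur2* and *Fur1* were higher by 0.74 ± 0.06 and 0.31 ± 0.06 (SD, n = 3). The limma adjusted p of these 4 ran from 2.8e-05 to 0.0014, and each had the same sign on all 4 arrays.

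Among 22 trafficking and ubiquitin regulators, 5 were higher and 11 lower while 6 missed the threshold, and the median was -0.06. *aux*, the auxilin that uncoats clathrin vesicles in ligand-sending cells, was higher by 0.42 ± 0.04, and the syntaxin *Syx7*, needed for endosomal entry of Notch, by 0.33 ± 0.08 (SD, n = 3). *sca*, a secreted protein of neurogenic patterning, was lower at -0.46 ± 0.10, and *Sec15*, an exocyst subunit, at -0.32 ± 0.06 (SD, n = 3). These 4 had limma adjusted p of at most 0.0013 and 1 sign on all 4 arrays.

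The 13 nuclear cofactors had the highest median of the lists, 0.20, with 7 higher, 2 lower and 4 that did not pass. *ebi*, a WD-repeat protein of co-repressor complexes, was higher by 0.60 ± 0.04, the histone acetyltransferase *nej* by 0.48 ± 0.02 and *insv*, a co-repressor that binds Su(H), by 0.37 ± 0.05 (SD, n = 3). The Mediator kinase *Cdk8* was lower at -0.41 ± 0.10 (SD, n = 3). These 4 had limma adjusted p of at most 0.00065. Outside the naming rule, and chosen after their values were seen, the partners of Hairless, *gro* (0.10, limma adjusted p 0.19) and *CtBP* (-0.02, limma adjusted p 0.75), and the coactivator *mam* (-0.03, limma adjusted p 0.62) did not pass. *gro* is uncertain, because its probes were called both ways and in the dye-term fit it passed (0.20, limma adjusted p 0.0035).

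The target genes were lower where they passed. Of the 7 *E(spl)* bHLH repressor genes, which Notch activates through Su(H), 3 were lower and 0 higher while 4 missed the threshold, and the median was -0.13, beside 24.5% of all genes lower. In the dye-term fit 6 were lower, beside 27.5% of all genes. Of the calls gained there, named after their values were seen, *E(spl)mdelta-HLH* read 0.06, -0.03 and 0.07 on the first arrays of replicates 1, 2 and 3 and -0.64 on the dye swap, and *E(spl)m3-HLH* read -0.02, 0.0096 and 0.21 on those arrays and -0.35 on the dye swap. Both thus rest on the dye-swap array, a repeat of replicate 1. *E(spl)mgamma-HLH* was at -0.42 ± 0.08, *E(spl)m5-HLH* at -0.29 ± 0.10 and *E(spl)m7-HLH* at -0.14 ± 0.03 (SD, n = 3), with limma adjusted p of 0.00045, 0.0032 and 0.025. Of 10 listed Bearded family genes, whose products bind and inhibit Neuralized, 8 were tested, 6 were lower while 2 missed the threshold, and the median was -0.18. *BobA* was at -0.37 ± 0.01, *Tom* at -0.33 ± 0.01, *E(spl)m4-BFM* at -0.34 ± 0.10 and *E(spl)m6-BFM* at -0.18 ± 0.11 (SD, n = 3), with limma adjusted p of 0.00039 to 0.028. *E(spl)m6-BFM* did not pass in the dye-term fit (-0.09, limma adjusted p 0.11), and *BobA* has near-identical copies, so its value may be shared with them. The call of *E(spl)m7-HLH* was lost under 5 of 16 alternatives and that of *E(spl)m6-BFM* under 8.

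Markers of the tissues in which these genes act are given beside them, to be read against the 24.3% of all genes called higher and 24.5% lower. Of 18 tested neuroblast, neuron and glia markers 5 were lower and 0 higher, a share of lower genes near that background, the median was -0.07, and the proneural genes *l(1)sc* (-0.58) and *ac* (-0.38) had the smallest adjusted p. Of 14 mesoderm and muscle markers 8 were lower and 2 higher, with a median of -0.16. The contractile genes *wupA* (-1.25) and *Mhc* (-1.42) had the smallest adjusted p there, far below that median. Of 12 maternal and germ cell markers 7 were lower and 4 higher, with a median of -0.52, *alphaTub67C* (-2.56) and *pgc* (-1.76) having the smallest adjusted p. The part of these markers in the ratios of the target genes was not tested.

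**Figure D4:**
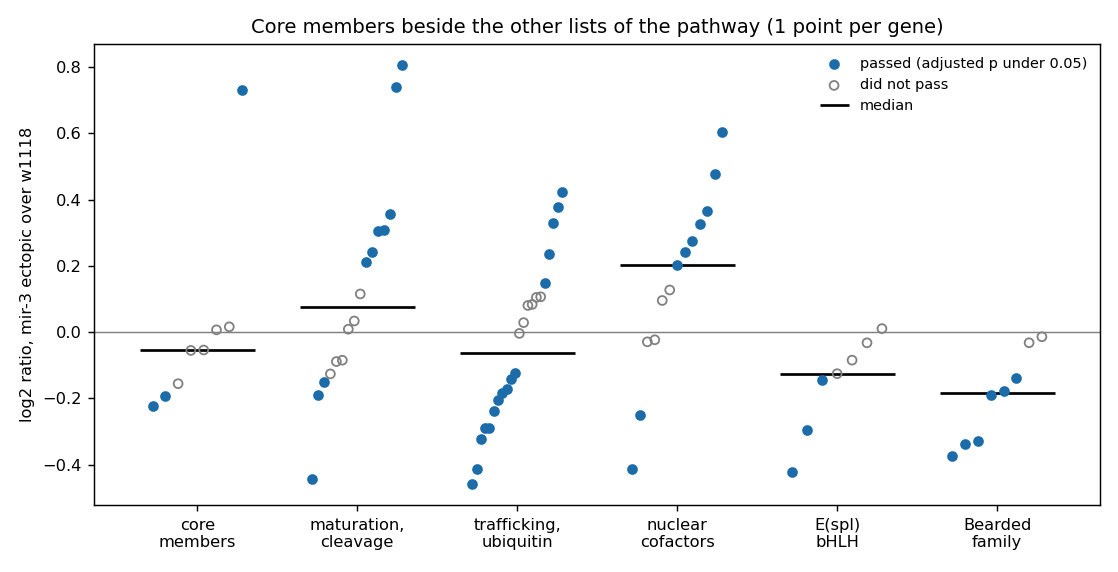
Log2 ratio of mir-3 ectopic over w1118 embryos, the mean of 3 replicates, for the 8 core members and the 66 other tested genes of the pathway, 1 point per gene, filled where the limma adjusted p was under 0.05, with the median of each list as a line. The medians run from -0.18 for the Bearded family to 0.20 for the nuclear cofactors, and *Su(H)* stands alone above the other core members.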

How the data were processed

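The members, lists and tests were chosen with earlier results of these data known. Per the file headers, Agilent Feature Extraction 10.1.1.1 made the scanner files. As deposited, these give spot and background intensity as medians on a linear scale, processed signals, and log10 ratios per spot, which were not tested here. The authors' value table holds log2 ratios; each column equalled log2 of processed Cy5 over Cy3 within 2.8e-06, its sign turned for the dye-swap array, and was not centred (column medians -0.15 to 0.11).

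Background was corrected with normexp (offset 50) and ratios normalized by loess within arrays in limma 3.58.1 under R 4.3.3. Control spots had weight 0 and, with outlier-flagged spots, were left out. Repeat spots were averaged, and a probe was kept if well above background in 1 genotype on at least 3 of the 4 arrays (19734 of 32162). Kept probes of a gene were averaged, after matching identifiers to RefSeq genes (Release 6 names only, since the headers name BDGP5.4; 19545 probes were matched). After the mean was taken of both replicate 1 arrays, lmFit and eBayes tested the 3 ratios against 0. P-values rest on the spread between these replicates, moderated by eBayes towards that of all genes, probes or pairs in the fit. A second fit had all 4 arrays with the dye as a term, and its residual spread comes from the 3 arrays of 1 orientation. Its estimate is the mean of the dye-swap value and the average of those 3 arrays, so replicate 1 weighs most. The noise of the dye-swap array does not enter its adjusted p. That both arrays of replicate 1 share their RNA was not modelled there. The alternative with slide as a random block also took all 4 arrays singly. Its estimated correlation within a slide was -0.05 over genes, so the arrays of replicate 1 counted as nearly independent. Intensities per genotype were taken after Aquantile. All 8 members and all their probes are named; from each pathway list up to 4 called genes, and from each marker list up to 2, with the smallest adjusted p. The tests were tested on simulated data.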

Additional observations from a re-analysis of the deposited data

Results flagged for a closer look

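On 3 member probes the dye-swap array lay apart from the other 3 arrays by Dixon's test for 4 values. Chance sets 1 of the 4 values apart, whichever it is, in about 1 of 20 groups of values. *Dl* probe A_09_P042001 was at -0.19 on the dye swap, with the others at 0.08 to 0.09, *Dl* probe A_09_P150090 at -0.097, with the others at 0.16 to 0.18, and *neur* probe A_09_P133140 at -0.19, with the others at -0.39 to -0.36. The values of A_09_P042001 are means of 2 spots, which lay on either side of 0 on the other 3 arrays. Over the array, counted by gene and not by probe, the dye-swap array stood apart in 6.92% of genes, and each of the other 3 in 0.687% to 0.747%.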

How the results depend on the processing

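*Su(H)* stayed higher under all 16 alternatives (0.53 to 0.82), and its call was lost only with median centring in place of loess. With that centring limma called 0 member genes, 0 member probes, 0 probe pairs and 0 pathway list genes (1, 1, 7 and 2 at an unadjusted p under 0.05), and over the array 29.3% of calls were higher, beside 49.8% as reported; the cause was not tested. Beside the reported 3 member genes called (1 higher, 2 lower), the brightest probe of each gene gave 6 (2 higher, 4 lower), the dye-swap array alone for replicate 1 gave 1 (0 lower, and 1 at an unadjusted p under 0.05), and an offset of 10, the dye as a term and slide as a random block each gave 1 lower. Leaving out 1 replicate gave 1 to 4 called, 0 to 3 of them lower; 1 remained without replicate 2 or 3. Beside 8 member probes called (3 higher, 5 lower), the dye-swap array alone gave 5 (2 lower) and the first array alone 6 higher, and leaving out 1 replicate gave 3 to 6 higher. Beside 8 pairs, the dye-swap array alone gave 0 (5 unadjusted) and leaving out 1 replicate 5 to 7. Beside 44 pathway genes (25 lower), the dye-swap array alone gave 28 (13 lower), and leaving out 1 replicate 15 to 25 lower. Of all 14854 genes, 3610 were higher and 3636 lower as reported, against 2228 and 2092 with the dye-swap array alone. The first array alone gave 4453 and 4268, and the brightest probe 3458 and 3691. Leaving out replicate 1, 2 or 3 gave 4006, 2731 or 2524 higher and 4245, 2401 or 2224 lower.

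The gene ratio of *Dl*, 0.0070, changed sign to -0.00035 with no background subtraction, -0.064 with processed signals and with the value table, -0.0023 with median centring, -0.0078 with offset 10, -0.032 with the dye as a term, -0.013 with the dye-swap array alone, -0.0024 with the slide block, -0.014 without replicate 2 and -0.24 with the brightest probe, the last with a limma adjusted p of 0.0040; leaving out 1 replicate gave -0.014 to 0.026. That of *H* changed sign to -0.019 with median centring, -0.019 with the first array alone, and without single replicates it ran from -0.041 to 0.12 (-0.034 without replicate 1), and *Ser* to 0.026 with the dye as a term. Among probes that did not pass, the dye term turned *Dl* A_09_P042001 (-0.057), A_09_P052286 (-0.0063) and A_09_P174375 (0.046) and *neur* A_09_P043841 (0.071). Processed signals turned *N* A_09_P010921 (-0.019) and *Dl* A_09_P042001 (-0.0029), the dye-swap array alone turned *Dl* A_09_P042001 (-0.010) and *neur* A_09_P043841 (0.016), and leaving out replicate 3 turned *neur* A_09_P043841 (-0.094 to 0.040 over single replicates left out) and *Dl* A_09_P174375 (-0.20 to 0.026). The call of *fng* was lost under 9 of 16 alternatives and that of *neur* under 4, while *N* passed under 8. The reported test is paired, since each ratio sets both genotypes of a replicate against each other on 1 array.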
